A study of Mus musculus with 18 samples.

Results

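The complement system was followed through the liver transcriptome as a set of 38 genes, picked by symbol, each found on 1 of the 55487 rows of the deposited table of raw read counts. The genes cover the recognition molecules and proteases of the classical and lectin pathways, C4 and C2, C3 and the alternative pathway, the terminal pathway, soluble and membrane regulators, and the receptors of the anaphylatoxins. Livers came from 18 male C57BL/6J mice, bought as young adults, with 1 library per mouse and 6 mice per group. CON-GFP mice ate a purified control diet for 16 weeks, and FPC-GFP and FPC-LIPA mice ate for the same time the FPC diet, a high-fat diet with added fructose, palmitate and cholesterol, and drank fructose-glucose water. Every mouse had been injected 1 week before the diets began with an adeno-associated virus whose promoter is active in hepatocytes, carrying GFP in the CON-GFP and FPC-GFP groups and human LIPA, the gene of lysosomal acid lipase, in FPC-LIPA. No group without a vector, and no LIPA group on the control diet, is part of these libraries. The libraries are of whole liver collected after a short fast, so fewer cells of a type and less RNA per cell cannot be told apart.

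Complement is a cascade of plasma proteins that coats, inflames around and perforates targets. C1q, mannose-binding lectins, ficolins and collectins recognise surfaces and carry proteases that cleave C4 and C2, while factor B, factor D and properdin build the amplifying convertase of the alternative pathway. The pathways meet at C3, and cleavage of C5 starts the assembly of C6, C7, C8 and C9 into the membrane attack complex. Hepatocytes make most of the plasma proteins, whereas C1q and properdin are known chiefly as products of macrophages and other myeloid cells, and membrane regulators such as CD55 and CD59 protect the host's own cells.

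Total counts per library ranged from 16632146 to 37739301. The 8 hepatocyte markers summed to between 46300 and 101000 CPM (read counts scaled for library size, with TMM factors) in every library, and Alb was the highest of them. The libraries FPC-LIPA 36, 37 and 39 stood apart: 6.48% to 8.15% of their counts fell on 83 cytosolic ribosomal protein genes, against 2.16% to 2.95% in FPC-LIPA 31, 33 and 34 and 1.44% to 2.54% in the GFP groups. Every LIPA call among the 38 genes is therefore given with and without these 3 libraries. The mouse gene Lipa read between 208 and 406 CPM over all libraries, but the vector carries the human gene, so this row does not check the labels. Over all genes with at least 10 counts in a pair of libraries, every pair within a group differed with a chi-square per degree of freedom of at least 15.4, so no library was counted as a copy of another.

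The level of complement transcripts spanned several orders of magnitude. In CON-GFP the highest mean levels per kb of exon were those of Vtn at 898 ± 241 CPM per kb (SD, n = 6) and C3 at 788 ± 210 CPM per kb, which did not differ beyond their spread. Clu followed at 419 ± 112 CPM per kb, C8g at 395 ± 38.6 CPM per kb, Mbl2 at 387 ± 60.6 CPM per kb and Serping1 at 300 ± 45.3 CPM per kb, and the first 3 of these again lay within each other's spread. At the other end, C3ar1, C5ar1, C7, Cd46 and C1rb lay under 0.5 CPM per kb in CON-GFP. C3 alone held 19.9% to 29.4% of the counts of all members in CON-GFP. The members together took 1.15% to 1.91% of the counts in CON-GFP, 1.19% to 1.43% in FPC-GFP and 0.759% to 1.29% in FPC-LIPA, and the 3 lowest shares, 0.759% to 0.818%, were those of FPC-LIPA 36, 37 and 39.

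**Figure D1:**
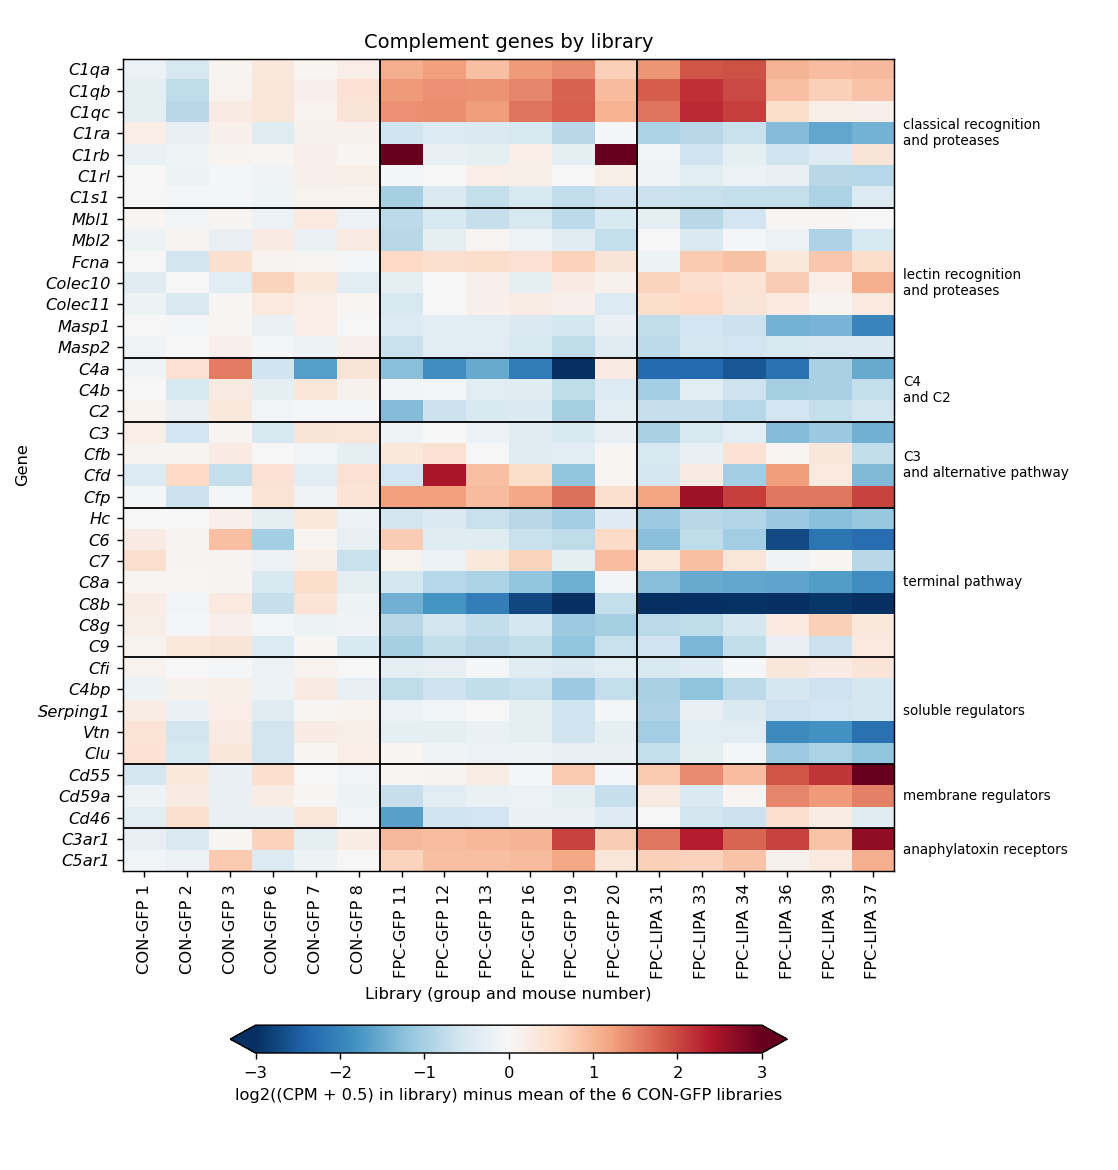
Each cell is the log2 level of 1 complement gene (rows, grouped by role) in 1 library (columns), as log2(CPM + 0.5) minus the mean of the 6 CON-GFP libraries. C1q genes, Cfp and both anaphylatoxin receptors are red across FPC-GFP, C8b is blue there and darker in FPC-LIPA, and Cd55 is darkest red in FPC-LIPA 36, 37 and 39.

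The question of the first comparison was what the FPC diet did to complement genes in GFP mice. Of 37 members tested in edgeR's quasi-likelihood fit, 7 passed the test (adjusted p under 0.05) with higher levels in FPC-GFP than in CON-GFP, where 12.9% of all 14307 tested genes passed that way. The other direction held 13 members, against 10.9% of all genes. Under the study's definition of a differentially expressed (DE) gene, which adds a change of at least 2-fold, 6 members were higher, with a background of 4.76%, and 1 was lower, with a background of 2.44%. The groups did not overlap for 5 members that were higher in FPC-GFP, against 5.61% of all genes, and for 10 that were lower, against 4.82%. The median log2 fold change of the tested members was -0.28, beside 0.01 for all tested genes. C1rb was the member that had too few counts to be tested.

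The second comparison asked what LIPA did on the FPC diet, and it uses the same 6 FPC-GFP libraries, so its values are not independent of the first. There 5 members passed the test with higher levels in FPC-LIPA, against 14.4% of 14620 tested genes, and 6 with lower levels, against 6.87%. DE members numbered 2 higher, with a background of 10.3%, and 2 lower, with a background of 1.11%. No member lay higher in every FPC-LIPA library than in every FPC-GFP library, a pattern of 3.36% of all genes, and 3 lay lower, C1rl, Masp1 and C6, a pattern of 4.30%. The median log2 fold change was 0.00 for the members and 0.04 for all genes. Without FPC-LIPA 36, 37 and 39, which leaves 3 mice against 6, none of the members passed in edgeR (9 were higher and 4 lower at an unadjusted p under 0.05), and the whole table then held 169 genes passing higher and 17 lower, against 2098 and 1004 with all 12 libraries. All 11 calls were also lost with only the libraries whose sample sheet number lies from 55 to 68, which leaves out FPC-GFP 20 and FPC-LIPA 37. The whole table then held 100 genes passing higher and 4 lower.

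**Figure D2:**
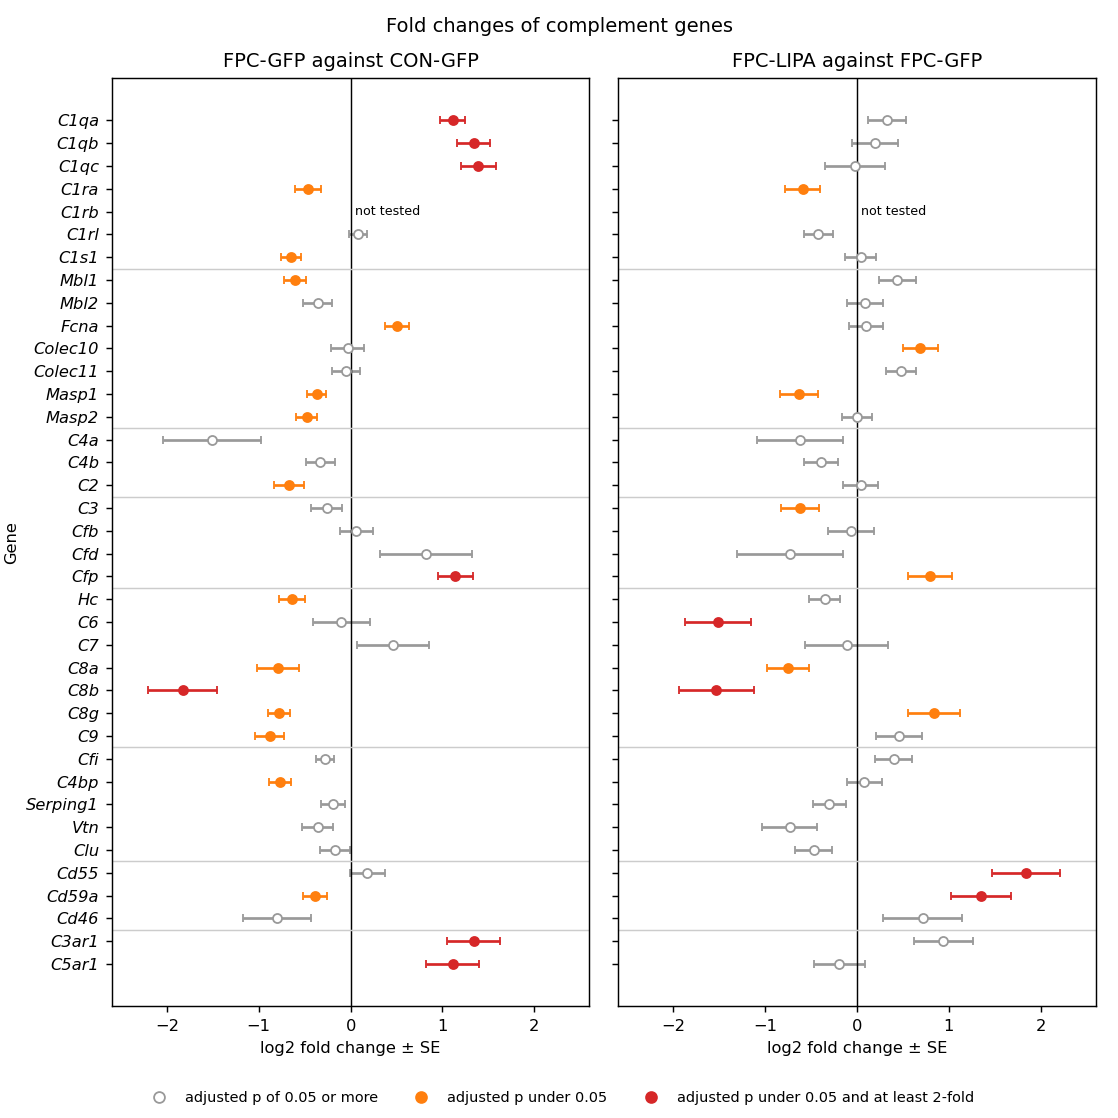
Points are log2 fold changes of the complement genes, with bars of 1 SE, for FPC-GFP against CON-GFP (left) and FPC-LIPA against FPC-GFP (right), both from 6 mice per group. On the left the C1q genes, Cfp, C3ar1 and C5ar1 sit between 1.11 and 1.39 and C8b at -1.83, and on the right Cd55 and Cd59a reach 1.84 and 1.35 while C6 and C8b reach -1.51 and -1.53.

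The recognition molecule of the classical pathway rose as a unit with the FPC diet. C1qa, C1qb and C1qc encode its 3 chains and lie beside each other on chromosome 4. C1qa had 25.6 CPM in the lowest, 37.8 in the median and 44.5 in the highest CON-GFP library, and 58.9, 80.4 and 96.5 CPM in FPC-GFP. C1qb went from 18.9, 35.7 and 44.0 CPM to 63, 84.1 and 111 CPM. For C1qc the corresponding values were 15.2, 31.1 and 36.3 CPM and 57.4, 72.3 and 96.6 CPM. In none of the 3 genes did a CON-GFP library reach the lowest FPC-GFP library. The increases were 2.16-fold for C1qa (log2 1.11 ± 0.14 SE, adjusted p = 0.000232), 2.53-fold for C1qb (1.34 ± 0.18, adjusted p = 0.000314) and 2.62-fold for C1qc (1.39 ± 0.19, adjusted p = 0.000278), and each passed under all 20 alternative settings.

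Markers of Kupffer cells, the resident macrophages of the liver, moved with C1q, and their part in the result was not tested. The 8 markers (Clec4f, Timd4, Vsig4, Cd5l, Marco, Adgre1, Folr2 and Cd163) were all detected and summed to 114 to 239 CPM in CON-GFP livers, 320 to 556 CPM in FPC-GFP and 429 to 858 CPM in FPC-LIPA. With the diet 7 of the 8 passed higher, with Cd163 the exception (log2 0.53 ± 0.25, adjusted p = 0.136). Over all tested genes 12.9% passed that way. Markers of monocytes and recruited macrophages summed to 37.6 to 88.8 CPM in CON-GFP livers, 102 to 316 CPM in FPC-GFP and 439 to 677 CPM in FPC-LIPA. Most of each sum was Lyz2, at 31.6 to 75.8, 78.4 to 269 and 364 to 643 CPM. With the diet 6 of the 9 tested rose. Ly6c2 (log2 -0.12 ± 0.32), Ccr2 (0.22 ± 0.33) and Cx3cr1 (1.09 ± 0.40, adjusted p = 0.0597) did not pass. S100a4, the tenth of that list, stayed under 0.5 CPM in every library. The summed CPM of the C1q genes per summed CPM of the Kupffer cell markers was 0.508 to 0.623 in CON-GFP and 0.545 to 0.724 in FPC-GFP, so these ranges overlapped while the C1q sum itself went from 59.8 to 122 CPM to 179 to 304 CPM.

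In FPC-LIPA the C1q genes split with the libraries that stood apart. Their sum was 290, 416 and 384 CPM in FPC-LIPA 31, 33 and 34, and 174, 160 and 153 CPM in FPC-LIPA 36, 37 and 39. Over all 6 libraries none of the 3 genes passed against FPC-GFP, with log2 fold changes of 0.33 ± 0.21 for C1qa, 0.20 ± 0.25 for C1qb and -0.02 ± 0.33 for C1qc. Without FPC-LIPA 36, 37 and 39 all 3 were higher, and none passed. Their changes were then 0.63 ± 0.17 (adjusted p = 0.0887), 0.65 ± 0.16 (adjusted p = 0.0697) and 0.58 ± 0.17 (adjusted p = 0.112). The ratio of C1qa to C1qc was 1.84 to 2.31 in FPC-LIPA 36, 37 and 39 and 1.03 to 1.17 in the other FPC-LIPA libraries, beside 0.999 to 1.16 in FPC-GFP and 1.14 to 1.68 in CON-GFP. C1q per Kupffer cell markers was likewise 0.197 to 0.357 in these 3 libraries and 0.486 to 0.563 in the other FPC-LIPA libraries. C1qa has 1040 bases of exon and C1qc 1931. Once the trend of each library on gene length was removed, the LIPA changes over all 6 libraries lay closer together. They were -0.02 ± 0.27 for C1qa, -0.11 ± 0.32 for C1qb and -0.16 ± 0.35 for C1qc. The part of gene length in the ratio of C1qa to C1qc was not tested.

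**Figure D3:**
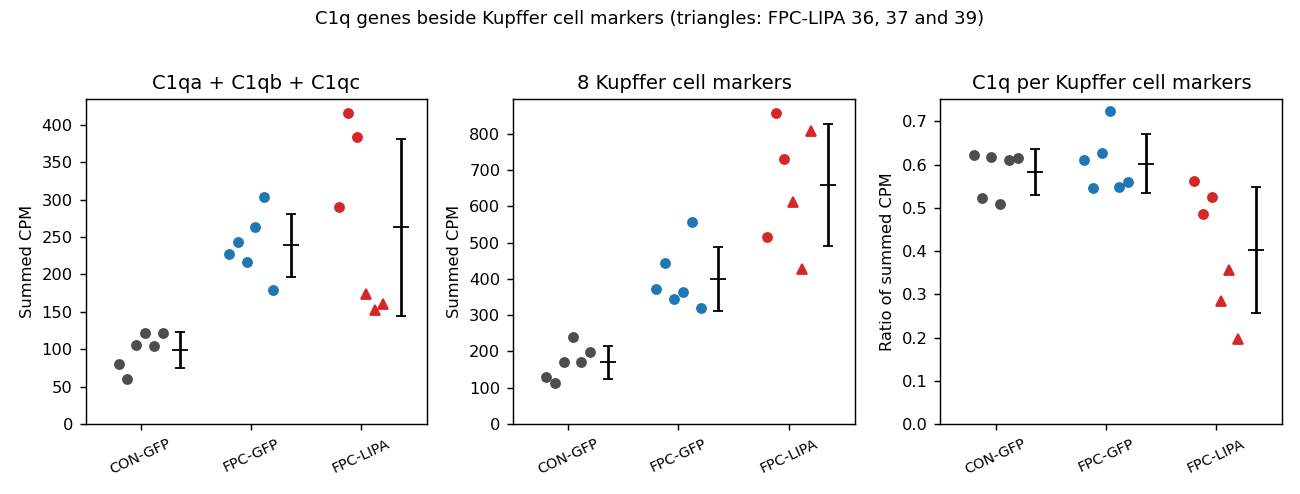
Points are libraries, with the mean and SD (n = 6) of each group in black. The panels show the summed CPM of C1qa, C1qb and C1qc, the summed CPM of 8 Kupffer cell markers, and their ratio. Triangles, FPC-LIPA 36, 37 and 39, lie at 153 to 174 CPM of C1q and have the 3 lowest ratios, 0.197 to 0.357.

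The promoters of C1qb and C1qc are shown because the C1q genes rose together. The stretches are the 200 bases before the RefSeq start in the mouse build GRCm38.p6, with matches to GAGGAA, the core bound by ETS factors such as PU.1 of macrophages, in capitals on either strand. GAGGAA was found in 18.9% of the 27025 promoters of that length in the table and in 4 of the 28 members with a promoter there, C1qb, C1qc, Cd59a and Fcna. A match is a description of the letters, not of binding.
C1qb, chr4:136886201-136886400, minus strand: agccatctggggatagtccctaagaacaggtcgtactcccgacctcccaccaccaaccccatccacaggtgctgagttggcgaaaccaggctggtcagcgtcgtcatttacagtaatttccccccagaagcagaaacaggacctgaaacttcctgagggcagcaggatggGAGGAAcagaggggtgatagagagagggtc
C1qc, chr4:136892915-136893114, minus strand: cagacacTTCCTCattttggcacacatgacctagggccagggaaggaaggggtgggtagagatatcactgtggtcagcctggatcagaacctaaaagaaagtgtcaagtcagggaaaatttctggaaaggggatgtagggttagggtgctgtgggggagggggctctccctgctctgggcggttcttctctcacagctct

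The proteases that C1q carries, made by hepatocytes, were lower instead. C1s1, with the highest level per kb of this branch in CON-GFP (215 ± 13.7 CPM per kb), encodes C1s. It had 617, 669 and 723 CPM (lowest, median, highest) in CON-GFP livers, 336, 426 and 500 CPM in FPC-GFP and 348, 416 and 510 CPM in FPC-LIPA. CON-GFP lay wholly above FPC-GFP, a 1.57-fold decrease (log2 -0.65 ± 0.11, adjusted p = 0.00144), and the FPC-LIPA change of 0.04 ± 0.17 did not pass. C1ra, encoding C1r, fell by 0.46 on the log2 scale with the diet (SE 0.14, adjusted p = 0.0303) and by 0.59 with LIPA (SE 0.19, adjusted p = 0.0401). Both calls of C1ra were unsteady: the diet call passed in 10 of 20 alternatives, and the LIPA change was -0.36 (adjusted p = 0.302) without FPC-LIPA 36, 37 and 39. C1rl, a C1r-like protease, did not pass in either comparison (0.08 ± 0.10 and -0.42 ± 0.16).

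C1rb, a copy of C1ra, was near silent but for a pair of livers. It had at most 0.502 CPM in 16 libraries, and 7.38 and 10.7 CPM in FPC-GFP 11 and 20. Of the 75-base windows in C1rb transcripts, 49.5% also occur in C1ra transcripts, and 40.1% of C1ra windows occur in C1rb, so reads of the pair cannot be fully separated. The study's paired reads are longer than these windows, so the windows may overstate the share of reads affected. C1ra itself was at 146 CPM in FPC-GFP 11 and 215 CPM in FPC-GFP 20, and at 124, 160, 164 and 167 CPM in the other FPC-GFP livers.

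Of the 7 lectin pathway genes, 3 fell with the FPC diet (Mbl1, Masp1 and Masp2), 1 rose (Fcna) and 3 did not pass. Over all tested genes 10.9% passed lower and 12.9% higher. Mbl1 and Mbl2 encode mannose-binding lectins, and Mbl2 had the highest level per kb of the branch. Mbl2 had 354, 410 and 501 CPM (lowest, median, highest) in CON-GFP livers, 235, 335 and 437 CPM in FPC-GFP and 219, 340 and 423 CPM in FPC-LIPA, overlapping throughout, and it did not pass (log2 -0.36 ± 0.16 with the diet and 0.09 ± 0.20 with LIPA). Mbl1 fell 1.52-fold with the diet (-0.61 ± 0.12, adjusted p = 0.00238), with no overlap between groups. It was 0.44 ± 0.20 higher with LIPA, which did not pass.

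The lectin pathway proteases fell with the diet. Masp2, which cleaves C4 and C2, changed by -0.48 ± 0.11 (adjusted p = 0.00893) and Masp1 by -0.37 ± 0.10 (adjusted p = 0.0145), both without overlap. In Masp2, 54.9% of exon bases are shared with exons of Tardbp on the opposite strand, so its count depends on how strand was handled. Masp1 fell further with LIPA (-0.63 ± 0.21, adjusted p = 0.0470), to 32.9 CPM in FPC-LIPA 37 from a range of 90.4 to 112 CPM in FPC-GFP. Without FPC-LIPA 36, 37 and 39 its change was -0.26 (adjusted p = 0.288). It was -0.53 (adjusted p = 0.0595) once the trend of each library on gene length was removed.

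Ficolin A and the collectins behaved otherwise. Fcna, encoding a ficolin known from macrophages, rose 1.42-fold with the diet (log2 0.51 ± 0.13, adjusted p = 0.0140), the smallest increase that passed, and its groups overlapped. Colec10, encoding collectin liver 1, lay at -0.03 ± 0.18 with the diet and rose 1.62-fold with LIPA (0.69 ± 0.19, adjusted p = 0.0249). Its change was 0.54 (adjusted p = 0.107) without the 3 libraries. Colec11, encoding collectin kidney 1, lay at -0.05 ± 0.15 with the diet and, with LIPA, at 0.48 ± 0.16 (adjusted p = 0.0503), just outside the threshold. The LIPA value was 0.24 (adjusted p = 0.308) once the trend of each library on gene length was removed.

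Of the components that form the classical and lectin convertase, C2 fell and the C4 genes did not pass. C4b, with the highest level per kb here, had 836, 1230 and 1500 CPM (lowest, median, highest) in CON-GFP livers, 692, 925 and 1150 CPM in FPC-GFP and 578, 658 and 931 CPM in FPC-LIPA. The groups overlapped, with log2 changes of -0.33 ± 0.16 and -0.39 ± 0.19 that did not pass. C4a, its neighbour that encodes sex-limited protein in mice, was widely spread: 43.3, 154 and 399 CPM in CON-GFP livers and 16.8, 43.0 and 165 CPM in FPC-GFP livers. Its diet change of -1.51 ± 0.53 was large but missed the threshold (adjusted p = 0.0523), and it passed in 6 of 20 alternatives. Some reads of the C4 genes may not be told apart, since 19.7% of C4a windows of 75 bases occur in C4b. Here too the study's reads are longer than the windows.

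C2 fell 1.59-fold with the diet (-0.67 ± 0.16, adjusted p = 0.00905), without overlap between groups, and changed by 0.04 ± 0.19 with LIPA. Its level may be understated, as may that of Cfb, factor B of the alternative pathway. A read-through gene, Gm20547, shares 42.8% of the exon bases of C2 and 79.5% of those of Cfb on the same strand, and it is listed at 0 in all 18 libraries. Reads in such shared exons can be assigned to no gene, and how they were treated is not given in the sources used here. Cfb had a mean of 4.54 ± 0.619 CPM in CON-GFP and changed by 0.06 ± 0.18 with the diet and -0.06 ± 0.25 with LIPA.

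C3, on which all pathways converge, fell with LIPA and did not pass with the diet. C3 had 2640, 4320 and 5130 CPM (lowest, median, highest) in CON-GFP livers, 2850, 3400 and 3880 CPM in FPC-GFP and 1450, 1910 and 3100 CPM in FPC-LIPA. FPC-GFP lay within the CON-GFP range, and 3 of the 6 FPC-LIPA libraries, those that stood apart, had the lowest values of all. The diet change was -0.26 ± 0.17 (adjusted p = 0.263) and the LIPA change -0.62 ± 0.21 (1.53-fold lower, adjusted p = 0.0452). Without FPC-LIPA 36, 37 and 39 the latter was -0.34 (adjusted p = 0.291).

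Properdin, the protein that stabilises the alternative convertase, went up in both comparisons. Cfp had 12.1, 18.6 and 25.8 CPM (lowest, median, highest) in CON-GFP livers, 26.8, 44.5 and 61.6 CPM in FPC-GFP and 43.9, 68.8 and 113 CPM in FPC-LIPA. CON-GFP and FPC-GFP did not overlap, whereas FPC-GFP and FPC-LIPA did. Cfp rose 2.21-fold with the diet (log2 1.14 ± 0.19, adjusted p = 0.00122) and 1.74-fold with LIPA (0.80 ± 0.24, adjusted p = 0.0325). The size of the LIPA change was as large without FPC-LIPA 36, 37 and 39, 0.89, with an adjusted p of 0.110. Unlike C1q, Cfp was not lowest in those libraries, which had 58 to 79.2 CPM beside 43.9 CPM in FPC-LIPA 31. Once the trend of each library on gene length was removed, the LIPA change of Cfp was 0.59 (adjusted p = 0.0899). Of the Kupffer cell markers 4 passed higher with LIPA and Cd163 passed lower, and 6 of 9 tested markers of monocytes and recruited macrophages passed higher. Over all tested genes 14.4% passed higher with LIPA and 6.87% lower. Without the 3 libraries 7 of the 8 and 9 of the 9 had higher values, and 2 and 1 passed. Their part in the change of Cfp was not tested.

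Cfd, encoding the protease factor D (adipsin), known as a product of adipocytes, had 5.64 to 14.7 CPM in CON-GFP livers, 3.96 to 54.8 CPM in FPC-GFP and 3.52 to 23.6 CPM in FPC-LIPA. The value of 54.8 CPM was FPC-GFP 12, and neither comparison passed. Adipocyte markers (Adipoq, Plin1, Lep, Retn and Adig) summed to 1.76 CPM in FPC-GFP 12, the highest sum of its group, and Adig made up 1.51 CPM of it. The highest sum of all, 11.7 CPM, was in CON-GFP 7. The part of adipocyte RNA in the Cfd value was not tested.

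**Figure D4:**
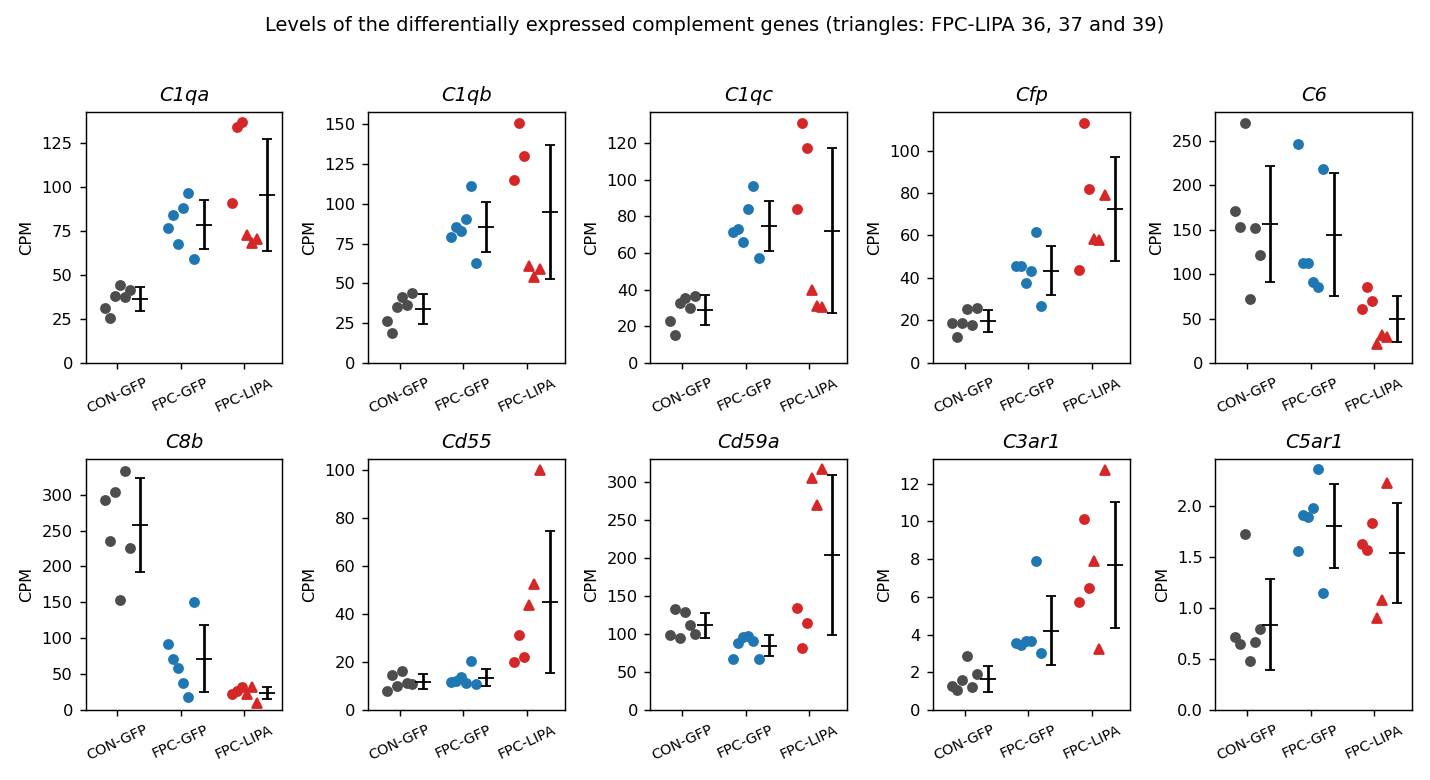
Each panel gives the CPM of 1 of the 10 complement genes that were DE in either comparison, with a point per library and the mean and SD (n = 6) in black. CON-GFP and FPC-GFP are separated in C1qa, C1qb, C1qc, Cfp, C8b and C3ar1, and the triangles (FPC-LIPA 36, 37 and 39) hold the highest Cd55 and Cd59a and the lowest C6 values.

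The terminal pathway fell with the FPC diet in 5 of its 7 genes, Hc, C8a, C8b, C8g and C9, where 10.9% of all tested genes passed lower. C8b, the beta chain of C8, was the only DE member that fell. It had 153, 263 and 333 CPM (lowest, median, highest) in CON-GFP livers and 18.6, 65.3 and 151 CPM in FPC-GFP, so that the highest FPC-GFP liver, FPC-GFP 20, was just under the lowest control. The decrease was 3.55-fold (log2 -1.83 ± 0.38, adjusted p = 0.00391) and it passed in all 20 alternatives, with values from -2.21 to -1.62. C8a, the alpha chain, is encoded next to C8b on chromosome 4 and fell 1.73-fold (-0.79 ± 0.23, adjusted p = 0.0201), passing in 19 of 20 alternatives. C8g, the gamma chain, which is a lipocalin and lies on chromosome 2, fell 1.71-fold (-0.78 ± 0.12, adjusted p = 0.000683).

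C9, which polymerises into the pore, fell 1.84-fold with the diet (-0.88 ± 0.16, adjusted p = 0.00194), from 332 to 602 CPM in CON-GFP livers to 200 to 288 in FPC-GFP livers. Hc, the gene of C5, fell 1.56-fold (-0.64 ± 0.14, adjusted p = 0.00529). C6 did not pass with the diet (-0.10 ± 0.31, adjusted p = 0.832). C7 was low in all groups, with 0.232 to 1.13 CPM in CON-GFP, and did not pass either (0.46 ± 0.39). Of the 8 hepatocyte markers, 3 fell with the diet (Serpina1c, Ass1 and Tat) and none rose. Over all tested genes 10.9% passed lower with the diet. The sum of the 8 was 66000 to 101000 CPM in CON-GFP livers and 57100 to 83500 in FPC-GFP livers. The part of the hepatocyte markers in these decreases was not tested.

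With LIPA the terminal genes parted. C6 fell 2.85-fold (log2 -1.51 ± 0.36, adjusted p = 0.0183), from 85.7, 112 and 247 CPM in FPC-GFP to 21.8, 45.9 and 85.0 CPM in FPC-LIPA, without overlap. The lowest values, 21.8 to 31.2 CPM, were in FPC-LIPA 36, 37 and 39, and without these libraries the change was -1.0 (adjusted p = 0.156). The highest FPC-GFP values, 247 and 218 CPM, were in FPC-GFP 11 and 20, the livers with C1rb counts, and leaving out either kept the call of C6. Some hepatocyte markers were lower as well: 2 of the 8 passed lower with LIPA, Serpina1c (-1.02 ± 0.30, adjusted p = 0.0319) and Hnf4a (-0.98 ± 0.32, adjusted p = 0.0425). None passed higher. Apoa1 was higher (0.44 ± 0.22) and Alb, Ttr, Cps1, Ass1 and Tat were lower (-0.62 to -0.07), none of them passing. The sum of the 8 was 46300 to 72900 CPM in FPC-LIPA, overlapping the 57100 to 83500 CPM of FPC-GFP. Without FPC-LIPA 36, 37 and 39 none of the 8 passed. Their part in the LIPA decreases of C6, C8a, C8b, C3, C1ra and Masp1 was not tested.

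C8b had 9.98, 24.7 and 32.7 CPM in FPC-LIPA, lower than in FPC-GFP by 2.88-fold (-1.53 ± 0.41, adjusted p = 0.0238). The groups overlapped because FPC-GFP 19 was already at 18.6 CPM. In contrast to C6, the size of the change was nearly as large without FPC-LIPA 36, 37 and 39 (-1.41, adjusted p = 0.166), but the call was lost without FPC-GFP 11, FPC-GFP 20 or FPC-LIPA 36. C8a fell by 0.75 on the log2 scale (SE 0.23, adjusted p = 0.0343), and by 0.67 without the 3 libraries (adjusted p = 0.216).

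C8g, the terminal gene with the highest level per kb, went the other way. It had 533, 570 and 667 CPM (lowest, median, highest) in CON-GFP livers, 275, 342 and 405 CPM in FPC-GFP and 337, 561 and 967 CPM in FPC-LIPA. FPC-LIPA 36, 37 and 39 had 715, 731 and 967 CPM, and the other FPC-LIPA livers had 337, 346 and 407 CPM. The increase over FPC-GFP was 1.79-fold (log2 0.84 ± 0.28, adjusted p = 0.0455), against 0.09 (adjusted p = 0.766) without the 3 libraries and 0.49 (adjusted p = 0.122) once the trend of each library on gene length was removed. C9 (0.46 ± 0.25), Hc (-0.35 ± 0.17) and C7 (-0.11 ± 0.45) did not pass with LIPA.

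The proportion between the C8 chains shifted at the RNA level. Per kb of exon, C8g stood above C8b 2.73- to 6.39-fold in CON-GFP, 3.35- to 25.2-fold in FPC-GFP and 22- to 125-fold in FPC-LIPA. In FPC-LIPA 31, 33 and 34 alone this ratio was 22 to 25.2. C8a stood above C8b per kb 1.82- to 2.52-fold in CON-GFP, 3.32- to 10.3-fold in FPC-GFP and 5.08- to 14.6-fold in FPC-LIPA.

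**Figure D5:**
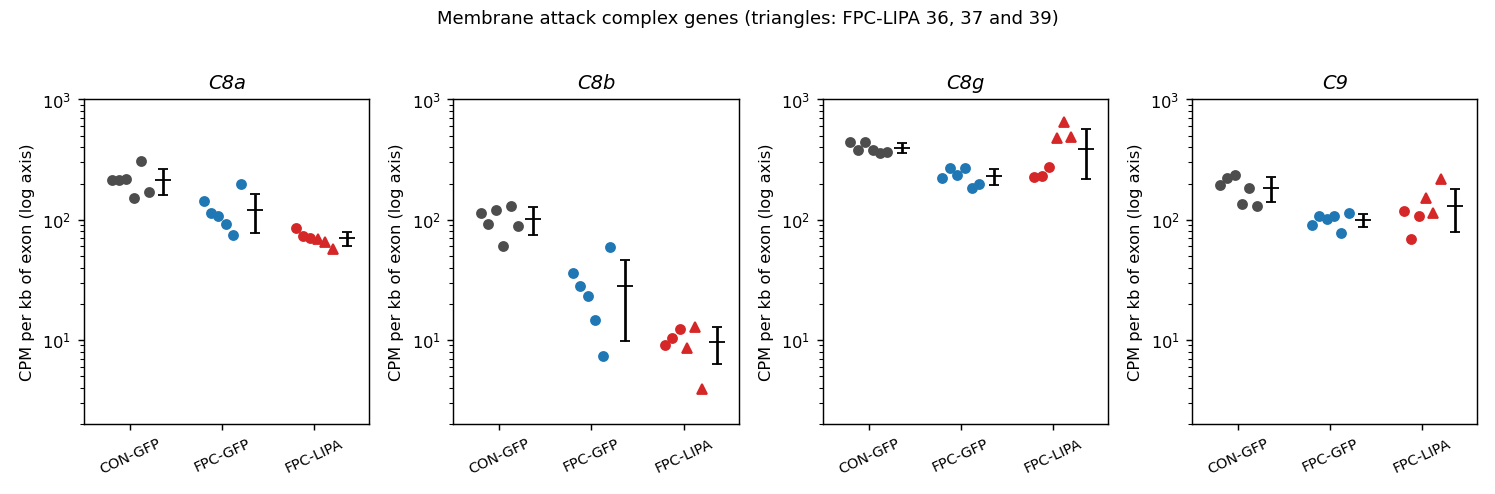
Levels of the 3 C8 chains and C9 are given per kb of exon on a log axis, with a point per library and the mean and SD (n = 6) in black. C8b drops from its CON-GFP level to a mean of 28.1 CPM per kb in FPC-GFP and 9.54 CPM per kb in FPC-LIPA, while C8g in FPC-LIPA splits between circles near the FPC-GFP level and triangles above the controls.

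The promoters of the C8 genes are shown because the chains fell together with the diet and then parted. The 200 bases before each start were searched on both strands for GAGGAA, for TTCNNNGAA, the spacing bound by STAT factors, for CAAAGTCCA, a sequence bound by HNF4, and for GTTAAT, a half-site of HNF1, and no matches overlapped. GTTAAT, in capitals, was found in C8a and in 5.09% of all promoters of the table. It was found in 7 of 28 members (C1ra, C4bp, C7, C8a, Cfp, Hc and Vtn). C8b and C8g held none of the motifs. TTCNNNGAA was found in 5.62% of all promoters and in C1rb, C7 and Masp2, and CAAAGTCCA in 0.318% of all promoters and in no member.
C8a, chr4:104876399-104876598, minus strand: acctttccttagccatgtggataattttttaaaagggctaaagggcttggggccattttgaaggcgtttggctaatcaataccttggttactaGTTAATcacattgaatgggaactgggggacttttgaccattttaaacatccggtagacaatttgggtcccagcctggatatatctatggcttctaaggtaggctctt
C8b, chr4:104766117-104766316, plus strand: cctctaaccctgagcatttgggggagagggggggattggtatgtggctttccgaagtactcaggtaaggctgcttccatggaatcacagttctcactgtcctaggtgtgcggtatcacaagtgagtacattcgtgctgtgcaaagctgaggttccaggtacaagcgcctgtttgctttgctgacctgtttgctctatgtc
C8g, chr2:25501720-25501919, minus strand: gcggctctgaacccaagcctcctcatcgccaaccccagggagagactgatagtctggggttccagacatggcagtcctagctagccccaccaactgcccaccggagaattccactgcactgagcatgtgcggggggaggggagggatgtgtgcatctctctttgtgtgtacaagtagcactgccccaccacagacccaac

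Among soluble regulators only C4bp, whose product binds C4b and speeds the decay of the classical convertase, passed the test, and only with the diet. It went from 633, 749 and 907 CPM (lowest, median, highest) in CON-GFP livers to 352, 455 and 492 CPM in FPC-GFP, a 1.70-fold decrease without overlap (log2 -0.77 ± 0.12, adjusted p = 0.000963), and lay at 326, 463 and 532 CPM in FPC-LIPA (0.08 ± 0.19 against FPC-GFP). Cfi, the protease that inactivates C3b and C4b, missed the threshold with the diet (-0.28 ± 0.10, adjusted p = 0.0601). Serping1, the C1 inhibitor, and Clu, clusterin, changed by -0.19 ± 0.13 and -0.17 ± 0.16 with the diet, neither past the threshold.

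Vtn encodes vitronectin, an inhibitor of membrane attack and the member with the highest level per kb in CON-GFP. It had 1200, 2050 and 2320 CPM in CON-GFP livers, 1160, 1440 and 1530 CPM in FPC-GFP and 371, 676 and 1400 CPM in FPC-LIPA. FPC-LIPA 36, 37 and 39 had 371 to 496 CPM, FPC-LIPA 31 had 856 CPM, also below every FPC-GFP liver, and FPC-LIPA 33 and 34 had 1400 CPM each, within the FPC-GFP range. The LIPA change of -0.73 ± 0.30 did not pass (adjusted p = 0.0866). Clu split in the same way, with 617 to 718 CPM in these 3 libraries and 856 to 1360 CPM in the others, and a change of -0.47 ± 0.20. Serping1 changed by -0.30 ± 0.18 and Cfi by 0.40 ± 0.20, and neither passed.

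Among the members, a pair of membrane regulators had the largest increases with LIPA. Cd55 encodes decay-accelerating factor, which dismantles C3 convertases. It had 7.93, 11.1 and 16.4 CPM (lowest, median, highest) in CON-GFP livers, 11.0, 12.0 and 20.3 CPM in FPC-GFP and 20.2, 37.6 and 99.8 CPM in FPC-LIPA. FPC-GFP and FPC-LIPA touched at a single library, FPC-GFP 19, whose 20.3 CPM lay above the 20.2 CPM of FPC-LIPA 31. Cd55 did not pass with the diet (log2 0.18 ± 0.19) and rose 3.59-fold with LIPA (1.84 ± 0.37, adjusted p = 0.0124). Without FPC-LIPA 36, 37 and 39, which had 43.8 to 99.8 CPM, the change was 0.90 (adjusted p = 0.0604).

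Cd59a encodes CD59, which blocks the insertion of C9. It had 94.9, 106 and 133 CPM in CON-GFP livers, 67.5, 89.4 and 97.3 CPM in FPC-GFP and 81.0, 201 and 317 CPM in FPC-LIPA. FPC-LIPA 36, 37 and 39 had 269 to 317 CPM, above the 134 CPM that was the highest of all other libraries, and FPC-LIPA 31, 33 and 34 had 134, 81.0 and 115 CPM. Cd59a fell by 0.39 with the diet on the log2 scale (SE 0.13, adjusted p = 0.0403), a call kept in 9 of 20 alternatives, and rose 2.56-fold with LIPA (1.35 ± 0.33, adjusted p = 0.0183). Without the 3 libraries the LIPA change was 0.40 (adjusted p = 0.244). The LIPA calls of Cd55, Cd59a and C6 passed when any single library was left out, but none of them did with the libraries of sample sheet numbers 55 to 68 (adjusted p = 0.0824 for C6, 0.0541 for Cd55 and 0.0812 for Cd59a). Some markers of other cells rose with LIPA beside Cd55 and Cd59a, and others of the same lists did not. Over all tested genes 14.4% passed higher with LIPA. Of the red blood cell markers 2 of 5 passed higher, Hbb-bs 10.1-fold and Hbb-bt 7.24-fold, both without overlap. Hbb-bs had 1320 to 2090 CPM in FPC-LIPA 36, 37 and 39, where FPC-LIPA 31, 33 and 34 had 222 to 565 CPM. Hba-a1 (log2 0.67 ± 0.27) and Hba-a2 (0.75 ± 0.29) were higher and Alas2 lower (-0.61 ± 0.25, adjusted p = 0.087), none of them passing. Without the 3 libraries 3 of the 5 passed higher, Hbb-bs (1.90, adjusted p = 0.0111), Hbb-bt (1.35, adjusted p = 0.0421) and Hba-a2 (1.04, adjusted p = 0.0425). The summed level of that list was 283 to 488 CPM in FPC-GFP and 528 to 2560 CPM in FPC-LIPA. Of the stellate cell and fibroblast markers 4 of 8 passed higher, with Col3a1 at 3.24-fold. Reln (-0.28 ± 0.15), Des (-0.13 ± 0.37), Col1a1 (-0.19 ± 0.32) and Pdgfrb (-0.47 ± 0.33) were lower without passing. Among the endothelial markers 1 of 7 passed higher, Bmp2 at 2.96-fold, beside 14.4% of all tested genes. Pecam1 (-0.18 ± 0.21) and Stab2 (-0.02 ± 0.27) were lower without passing. The 3 neutrophil markers tested held 2 that passed higher, S100a8 and S100a9, at 7.48- and 6.18-fold. Ly6g, another neutrophil marker, was at 0 in every FPC-LIPA library. Of the B cell markers 2 of 5 tested passed higher, Cd79b at 3.20-fold and Ms4a1 at 4.98-fold. Of the T and NK cell markers 1 of 5 tested did, Cd3d at 7.03-fold. The others tested were higher without passing. Both lists were low, at 1.18 to 7.76 and 1.52 to 3.98 CPM summed in FPC-GFP. In FPC-LIPA the sums were 6.78 to 20.1 and 2.5 to 9.29 CPM. Without FPC-LIPA 36, 37 and 39 none of their markers passed. Col3a1, Bmp2, S100a8 and S100a9 were each highest in FPC-LIPA 36, 37 and 39. Col1a1 had instead 5.23 to 7.51 CPM there and 13.0 to 24.7 CPM in FPC-LIPA 31, 33 and 34. Without FPC-LIPA 36, 37 and 39 none of the stellate cell and fibroblast, endothelial or neutrophil markers passed. Higher values were then seen in 7 of 8, 7 of 7 and 4 of 4 tested markers of these lists. These lists summed to 256 to 351, 200 to 252 and 2.77 to 6.08 CPM in FPC-GFP and to 359 to 1050, 254 to 396 and 7.24 to 18.7 CPM in FPC-LIPA. The part of any of these marker lists in the increases of Cd55 and Cd59a was not tested. Cd46, encoding membrane cofactor protein, stayed at or under 2.38 CPM and passed in neither comparison (-0.80 ± 0.37 and 0.72 ± 0.43).

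The promoters of Cd55 and Cd59a are shown as those of the members that rose most with LIPA. Cd59a holds a GAGGAA match, in capitals, and Cd55 none of the 4 motifs. Reads shared with their paralogs are few: 5.53% of Cd55 windows of 75 bases occur in Cd55b, which had at most 0.042 CPM, and 1.66% of Cd59a windows occur in Cd59b.
Cd55, chr1:130462745-130462944, minus strand: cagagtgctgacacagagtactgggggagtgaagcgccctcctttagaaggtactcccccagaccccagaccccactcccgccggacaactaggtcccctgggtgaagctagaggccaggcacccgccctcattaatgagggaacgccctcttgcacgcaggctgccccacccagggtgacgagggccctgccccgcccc
Cd59a, chr2:104095601-104095800, plus strand: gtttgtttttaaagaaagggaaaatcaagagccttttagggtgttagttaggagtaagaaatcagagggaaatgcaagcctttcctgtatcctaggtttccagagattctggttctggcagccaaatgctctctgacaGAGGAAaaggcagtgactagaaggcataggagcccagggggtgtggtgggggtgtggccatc

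Both anaphylatoxin receptors rose with the FPC diet from low levels. C3ar1, the receptor for C3a, had 1.04, 1.43 and 2.85 CPM (lowest, median, highest) in CON-GFP livers, 3.00, 3.59 and 7.89 CPM in FPC-GFP and 3.24, 7.18 and 12.7 CPM in FPC-LIPA. Its diet increase was 2.54-fold without overlap (log2 1.34 ± 0.29, adjusted p = 0.00444), and its LIPA change of 0.94 ± 0.32 lay just outside the threshold (adjusted p = 0.0509). C5ar1, the receptor for C5a, had 0.476, 0.688 and 1.73 CPM in CON-GFP livers and 1.15, 1.90 and 2.36 CPM in FPC-GFP livers. Its increase was 2.16-fold (1.11 ± 0.29, adjusted p = 0.0140), with CON-GFP 3 inside the FPC-GFP range, and its LIPA change was -0.19 ± 0.28.

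Other genes of complement were followed in a further list of 27, of which 20 were tested in each comparison. With the diet 5 passed higher and 6 lower, with a median log2 fold change of -0.16, beside 12.9% and 10.9% of all genes and a median of 0.01. With LIPA 5 passed higher and 2 lower, with a median of 0.54, beside 14.4% and 6.87% of all genes and a median of 0.04. Receptors carried by leukocytes were among those that rose with the diet: Vsig4, the C3b receptor of Kupffer cells and itself one of the markers above, by 1.07 ± 0.21, and the integrin chains of complement receptors 3 and 4, Itgam, Itgax and Itgb2, by 1.35 ± 0.34, 1.14 ± 0.32 and 1.46 ± 0.20. Cd93 also passed, at 0.58 ± 0.16. Itgam and Itgax passed again with LIPA, at 1.27 ± 0.38 and 1.05 ± 0.31. Their changes were as large without FPC-LIPA 36, 37 and 39, at 1.45 (adjusted p = 0.0790) and 1.10 (adjusted p = 0.125). Vsig4 did not pass with LIPA (0.66 ± 0.25, adjusted p = 0.0650).

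Cr1l, the mouse convertase regulator Crry, rose with LIPA by 0.84 ± 0.24 (adjusted p = 0.0275), and its change was 0.25 (adjusted p = 0.304) without FPC-LIPA 36, 37 and 39.

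Susd4, encoding an inhibitor of the classical and lectin convertase, fell in both comparisons. Its range was 17.6 to 39.3 CPM in CON-GFP livers, 3.31 to 16.8 CPM in FPC-GFP and 0.431 to 4.02 CPM in FPC-LIPA. The changes were -1.69 ± 0.32 (adjusted p = 0.00227) and -1.88 ± 0.44 (adjusted p = 0.0167), and the latter was -1.56 (adjusted p = 0.103) without the 3 libraries. Cpn2, a subunit of the carboxypeptidase that trims anaphylatoxins, passed lower in both as well (-0.51 ± 0.14 and -0.80 ± 0.23, the latter -0.43 without the 3 libraries), and Crp passed lower with the diet (-0.44 ± 0.13).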

How the data were processed

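The authors trimmed paired reads with Trimmomatic, mapped them to GRCm38 (mm10) with HISAT2 2.1.0 and counted them per gene with featureCounts of Subread, as the submitters' processing notes and the study's methods state. The deposited values are raw read counts without normalization. The strand setting, the annotation release and the handling of reads that match several places or overlapping genes are not given in the sources used here, and both a stranded and an unstranded kit are named, so counts of paralogs, overlapping genes and antisense partners are uncertain. The 18 columns were matched to groups by condition and mouse number, and 5 columns of other vectors were not used. Each library is 1 mouse.

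Each comparison was fitted alone on its 12 libraries in R 4.3.3 with edgeR 4.0.16 (filterByExpr, TMM, quasi-likelihood test, Benjamini-Hochberg adjustment over all genes tested). SE is the log2 fold change divided by the square root of F. TMM factors over the 18 libraries were used for CPM, and levels per kb used the exon length in GENCODE M21, in which 55227 of the 55487 genes were found. The test was checked on simulated counts. Members, marker lists and the list of other complement genes were chosen with earlier results of these data known. Values of some genes of the last list are not reported here. Every member was named, with values by library range for members that were DE and for the highest per kb in each role. Promoters are from RefSeq (GRCm38.p6) and matched 28 members by symbol. Alternatives were DESeq2 1.42.0 size factors and Wald test, library size alone, other filters on low counts, all 18 libraries in 1 fit, only libraries whose sample sheet number, given in the labels, lies from 55 to 68, a fit without the per-library trend on log gene length, an adjusted p under 0.01 and each library left out. Leaving out FPC-LIPA 36, 37 and 39 together was chosen after seeing the data. Counting noise is small at these depths except for the members with the lowest counts, so errors are SD or SE over mice. Python 3.11.15, pandas 2.3.3 and matplotlib 3.10.9 made the tables and figures.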

Additional observations from a re-analysis of the deposited data

Results flagged for a closer look

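In 7 of 114 combinations of a member and a group, 1 library lay far from the other 5 by Dixon's test at the 95% level, where chance gives about 1 in 20. FPC-GFP 19 held 4 of them: C4bp at 352 CPM (the nearest library had 443), Vtn at 1160 CPM (nearest 1430), Cd55 at 20.3 CPM (nearest 13.6) and C3ar1 at 7.89 CPM (nearest 3.68). The same liver had the highest C1q sum, the lowest C8b and the lowest C9 of FPC-GFP. C4a was at 165 CPM in FPC-GFP 20 (nearest 57.4), Cfd at 54.8 CPM in FPC-GFP 12 (nearest 18.2) and C5ar1 at 1.73 CPM in CON-GFP 3 (nearest 0.795). No explanation was tested.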

How the results depend on the processing

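No called member reversed its direction under any alternative. With the diet, 7 members passed higher and 13 lower, 6 of them DE higher and 1 DE lower. All 20 calls were kept with DESeq2 size factors, the DESeq2 Wald test, at least 1 CPM in 6 libraries and removal of the length trend. Library size alone, which moved the median of all genes to 0.21, left 8 lower. DE lower became 2 with DESeq2 size factors, with no filter, with sample sheet numbers 55 to 68 and with the length trend removed, and 1 to 3 with a library left out (3 without FPC-GFP 20). With LIPA, 5 passed higher and 6 lower. Library size alone (median of all genes -0.09) left 2 higher and 3 lower. No filter left 3 higher and lost C1ra, Masp1, C3, Cfp and C8g. Removal of the length trend lost Masp1, Cfp and C8g and gained C3ar1 (adjusted p = 0.0474). Sample sheet numbers 55 to 68, an adjusted p under 0.01 and the removal of FPC-LIPA 36, 37 and 39 each left 0 higher and 0 lower, and 0 DE in either direction. At an unadjusted p under 0.05, edgeR gave 6 higher and 6 lower with those sheet numbers, and 9 and 4 without the 3 libraries. Leaving out a library gave 2 to 6 higher, 1 to 8 lower and 1 to 2 DE lower. Without FPC-GFP 11, FPC-GFP 20 or FPC-LIPA 36 only 1 member, C6, passed lower, and it was DE. Of 21 alternatives, Cd55, Cd59a and C6 passed in 19, C8b in 16, Colec10 in 14, C8a in 12, C1ra in 9, Cfp in 8 and Masp1, C3 and C8g in 7. With the diet Cd59a and C5ar1 were lost with sample sheet numbers 55 to 68, which leaves out CON-GFP 1, CON-GFP 2 and FPC-GFP 20. Fewer samples were fitted where libraries were removed; otherwise the cause was not tested. No paired analysis was possible because the groups share no mouse numbers. Depth bears most on C1rb, C7 and C5ar1, which had the lowest mean CPM of the members in CON-GFP.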
